A study of Mus musculus with 16 samples.

Results

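The transcription factor gene Etv5 was knocked down in cultured mouse spermatogonial stem cells, and expression was compared with cells that had received a negative control siRNA. The comparison used the 4 arrays titled Etv5 knockdown and the 4 titled Negative control, 8 of the 16 arrays in the series. The other 8 arrays held knockdowns of Bcl6b and Pou3f1, and are used here only to see whether a change was also present with another targeting siRNA. All cultures had a C57BL/6 background and had been founded from germ cells enriched for Thy1. They grew without serum in medium that held GDNF (20 ng/ml), GFRA1 (150 ng/ml) and FGF2 (1 ng/ml), so the controls were themselves under growth factor stimulation. RNA was collected after 30 h of siRNA, a transient reduction and not a deletion. The labels do not say whether the 4 replicates of a group were separate cultures, so p-values measure only the spread between these arrays, which may be technical. In such bulk RNA, fewer cells of a type and less RNA per cell cannot be told apart.

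Etv5 encodes an ETS factor, a family that binds DNA at sites with a GGAA core. In the testis it acts in spermatogonia and in Sertoli cells, and loss of Etv5 in mice leads to a progressive loss of spermatogonial stem cells. In culture, GDNF acts through the receptor RET and its co-receptor GFRA1 to raise Etv5, Bcl6b and Lhx1, which are used as markers of the self-renewing state, and FGF2 acts through RAS and the MAP kinase ERK.

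The siRNA lowered its target on every array. Etv5 intensity was 912, 912, 1676 and 898 on knockdown arrays 1 to 4 and 2882, 3072, 2999 and 2922 on control arrays 1 to 4. The groups did not overlap, and knockdown replicate 3 stood above the other knockdown arrays. The difference on the log2 scale was -1.49 ± 0.16 (SE, 4 arrays a group; limma, adjusted p 2.09e-04). The other probe sets of Etv5 differed by -1.69 and -1.68.

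The other 3 markers fell with Etv5. Bcl6b, a BTB zinc finger repressor, read 620, 618, 899 and 608 on the knockdown arrays and 1526, 1440, 1341 and 1504 on the control arrays, a difference of -1.10 ± 0.11 (adjusted p 9.27e-05). Lhx1, a LIM homeobox factor, read 70.9, 80.7, 109 and 63.8 against 206, 181, 202 and 218, a difference of -1.33 ± 0.14 (adjusted p 1.36e-04), and its second probe set differed by -1.29. In both genes the groups were apart, and replicate 3 was the highest knockdown array. Cxcr4, the receptor for the chemokine CXCL12, read 52.3, 100, 108 and 91.0 against 172, 169, 126 and 141. Its groups also did not overlap, with a difference of -0.82 ± 0.19 (adjusted p 0.0231). That call was lost without control replicate 1 (adjusted p 0.0753) or control replicate 2 (0.0652).

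**Figure D1:**
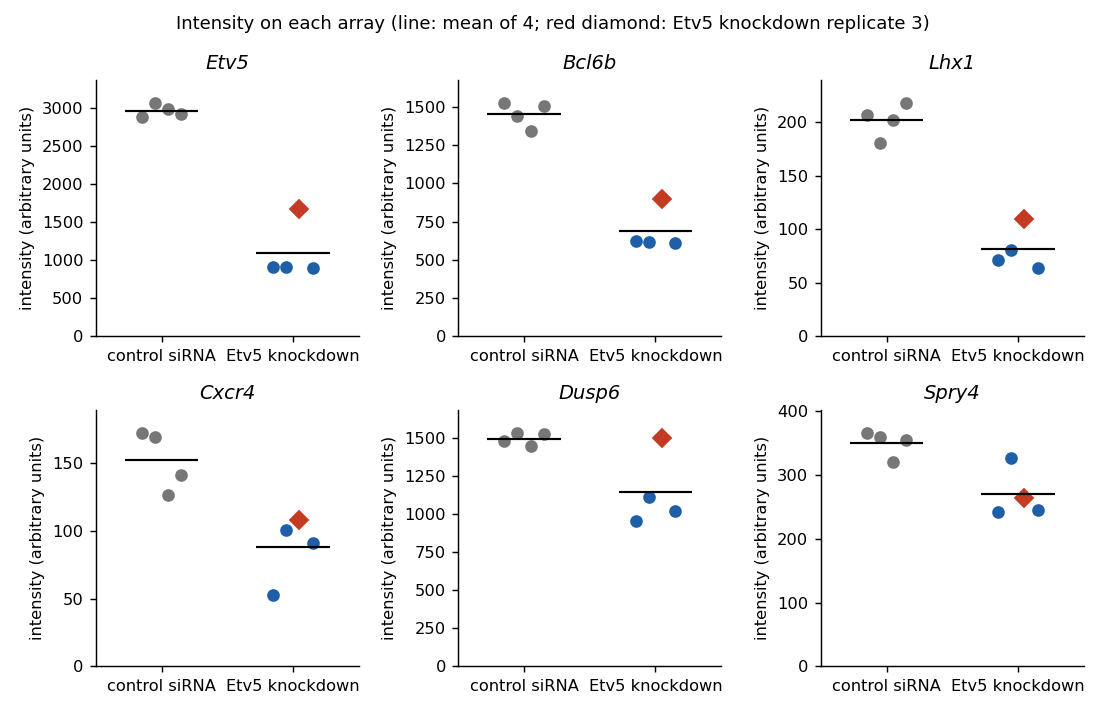
Intensity (arbitrary units, linear axis from 0) on each of the 4 control and 4 Etv5 knockdown arrays for the 4 markers and for the feedback genes Dusp6 and Spry4; lines are means of 4 and the red diamond is Etv5 knockdown replicate 3. Replicate 3 is the highest knockdown array for Etv5, Bcl6b, Lhx1, Cxcr4 and Dusp6, and at 1506 lies within the control arrays for Dusp6.

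Promoters of genes on both sides of the response are shown because the factor knocked down binds GGAA cores. The stretches are the 250 bases before the start of Lhx1 and Cxcr4, which fell, of Tec, a GDNF-responsive gene that fell, and of Krt18, which rose. They come from RefSeq, build GRCm38.p6, and capitals mark GGAA or its reverse complement TTCC.
Lhx1, chr11:84525535-84525784, minus strand: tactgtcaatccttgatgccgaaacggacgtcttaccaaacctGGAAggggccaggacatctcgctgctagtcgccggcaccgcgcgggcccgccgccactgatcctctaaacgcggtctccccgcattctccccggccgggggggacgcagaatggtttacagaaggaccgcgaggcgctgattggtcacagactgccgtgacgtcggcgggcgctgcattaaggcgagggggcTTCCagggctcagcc
Cxcr4, chr1:128592300-128592549, minus strand: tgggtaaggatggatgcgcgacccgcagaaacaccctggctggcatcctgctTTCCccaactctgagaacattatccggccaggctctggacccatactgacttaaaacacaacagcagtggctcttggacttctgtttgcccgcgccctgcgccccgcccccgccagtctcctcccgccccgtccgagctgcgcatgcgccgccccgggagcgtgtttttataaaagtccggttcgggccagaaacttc
Tec, chr5:72868449-72868698, minus strand: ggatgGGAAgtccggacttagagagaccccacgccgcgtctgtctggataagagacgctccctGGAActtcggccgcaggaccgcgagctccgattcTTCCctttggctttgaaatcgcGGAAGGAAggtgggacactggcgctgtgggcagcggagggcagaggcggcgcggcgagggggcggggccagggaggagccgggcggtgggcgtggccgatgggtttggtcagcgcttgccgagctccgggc
Krt18, chr15:102027966-102028215, plus strand: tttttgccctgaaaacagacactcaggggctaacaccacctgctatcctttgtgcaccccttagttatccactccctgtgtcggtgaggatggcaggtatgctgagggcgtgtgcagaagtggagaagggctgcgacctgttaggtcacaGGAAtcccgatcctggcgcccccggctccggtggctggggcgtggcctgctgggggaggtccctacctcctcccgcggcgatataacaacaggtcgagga
The windows held 2 cores for Lhx1, 1 for Cxcr4, 5 for Tec and 1 for Krt18. A core of this length was common: the core was present on either strand in 93.4% of all 27025 promoter windows of this length, in 93.8% of the 418 matched for genes that fell and in 92.3% of the 388 matched for genes that rose. The longer ETS sequence CCGGAA, searched on both strands and containing the core, was in 23.5% of the 9023 windows matched for tested genes, in 22.5% of those for genes that fell and in 18.8% of those for genes that rose. For another sequence around the core, AGGAAG on either strand, these shares were 26.6%, 26.8% and 25.3%. A match describes these letters only and says nothing of binding.

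Of 11068 genes tested, 994 were called at an adjusted p under 0.05, a background of 8.98% against which the counts below are read. The 482 genes that rose were 4.35% of those tested and the 512 that fell were 4.63%. Most changes were small: the median size was 0.26 on the log2 scale for rises and 0.23 for falls, 435 and 464 of them lay under 0.5, and 17 genes differed at least 2-fold, 6 of them upward. The arrays of the groups did not overlap in 950 of the called genes and in 17.4% of all tested genes. Counts depended on single arrays. Without Etv5 knockdown replicate 3, 496 genes rose and 638 fell. Without Etv5 knockdown replicate 1, 310 rose and 304 fell. Without control replicate 1 these counts were 292 and 221, and without control replicate 3 they were 304 and 254. Falls numbered 278 without control replicate 2 and 262 without control replicate 4.

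Of 18 germ cell markers on the array, 17 were above the median of all 8 arrays, among them Dazl, Uchl1 and Zbtb16, which mark spermatogonia. All 26 fibroblast and feeder markers were above it too, with Vim between 32406 and 42423. Of 15 Sertoli cell markers 5 were, namely Clu, Ctsl, Gdnf, Rhox5 and Sox9. The other 10, among them Gata4, Wt1 and Amh, were not above the median of any array. Median intensity was between 15.8 and 16.7 on the 8 arrays, and the number of arrays limits the precision.

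GDNF-responsive genes had the lowest median of the pathway lists. Of 22 tested members, which do not include Etv5 itself, 9 fell and 1 rose (45.5%), and the median member differed by -0.29 against -0.03 over all tested genes. The markers Bcl6b, Lhx1 and Cxcr4, chosen with earlier results of these data known, are among these falls. The list was not counted without them, so its share and median rest in part on them. The falls numbered 6 to 11 in fits that left out 1 array. Besides the markers, Tec, a cytoplasmic tyrosine kinase, read 117, 99.9, 135 and 107 on the knockdown arrays and 187, 193, 170 and 184 in control, a difference of -0.68 ± 0.09 (adjusted p 9.58e-04). Its groups were apart. Nefm, a neurofilament subunit, read 2992, 2991, 4102 and 2923 against 4635, 4991, 4665 and 4676 (-0.56 ± 0.09, adjusted p 0.0030), with replicate 3 between the other knockdown arrays and the controls. Id4, an inhibitor of bHLH factors that marks spermatogonial stem cells, read 1040, 993, 1179 and 940 against 1347, 1292, 1268 and 1319 (-0.34 ± 0.06, adjusted p 0.00629).

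Immediate early genes of the EGR family, whose zinc finger products report growth factor input, went in opposite directions. Egr2 read 1556, 1839, 1810 and 1524 against 2165, 2136, 2082 and 2272, without overlap (-0.37 ± 0.06, adjusted p 0.00387). Egr4, much dimmer on its own probe set, read 40.2, 47.8, 40.9 and 52.1 against 34.7, 34.8, 30.8 and 32.7 (0.43 ± 0.09, adjusted p 0.0175). The call for Egr4 was lost without control replicate 3 (adjusted p 0.0570).

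Of the receptors for GDNF, Gfra1 differed by -0.15 ± 0.07 and did not pass (adjusted p 0.174). The probe sets of Ret disagreed: the one used differed by -0.01 ± 0.05 (adjusted p 0.920), and the other, at a mean of 623 in control and 476 in knockdown, by -0.39 (adjusted p 0.0252 over all probe sets). Ret and Gfra1 were chosen after their values were seen. Feedback genes of FGF and MAPK signalling were split. Of 30 tested, 4 fell and 4 rose (26.7%), the median was -0.04, and without replicate 3 the counts were 9 lower and 4 higher. Dusp6, an ERK phosphatase, read 957, 1113, 1506 and 1025 against 1481, 1535, 1448 and 1530, so that replicate 3 lay among the controls (-0.40 ± 0.11, adjusted p 0.0411). Its call was lost in every fit that left out 1 array other than replicate 3. Spry4, a Sprouty inhibitor of receptor tyrosine kinases, read 242, 327, 265 and 246 against 366, 360, 321 and 355 (-0.38 ± 0.09, adjusted p 0.0233). In Spry4 the array nearest to control was replicate 2, which overlapped the lowest control array, and replicate 3 was low. The call for Spry4 held in 3 of 8 such fits, as did that for Il17rd (-0.25 ± 0.06, adjusted p 0.0235), a membrane inhibitor of FGF signalling.

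Ccnd1, the cyclin D gene that answers mitogens, had the steadiest fall of this list. It read 4581, 4346, 4535 and 4552 against 5996, 5607, 5663 and 5482 (-0.34 ± 0.03, adjusted p 9.57e-05), and replicate 3 lay among the other knockdown arrays. A dimmer probe set of Ccnd1 differed by -0.15 and did not pass. The rises were Dusp1, a nuclear MAP kinase phosphatase (0.33 ± 0.06, adjusted p 0.0072), Rasgrf1, an exchange factor that activates RAS (0.82 ± 0.13, adjusted p 0.00234), Dusp14 and Socs3. Rasgrf1 is dim, at 12 to 13.4 on the control arrays, below their medians, so its size is uncertain. Tested genes had to lie above the median on at least 4 of the 8 arrays. Rasgrf1 did so only through the knockdown arrays. Dusp14 (0.20 ± 0.06) and Socs3 (0.13 ± 0.04) were the smallest of the 4, and their calls held in 1 and 3 of 8 fits that left out 1 array.

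Among regulators of undifferentiated spermatogonia, 9 of 39 tested fell and 4 rose (33.3%). The median was -0.03, as over all tested genes at this rounding. Besides Lhx1, Bcl6b, Cxcr4 and Id4, Shisa6, a WNT inhibitor of the most primitive spermatogonia, fell from 20 to 22 in control to 10 to 15.6 (-0.73 ± 0.13, adjusted p 0.00481). Its knockdown values lay below the array medians, so Shisa6 was among the tested genes only through the control arrays. The remaining falls were small, at -0.18 for Sall4, -0.17 for Tex101, -0.14 for Bmi1 (chosen after its value was seen) and -0.10 for Dazl, and each of these calls held in at most 3 of the 8 fits without 1 array. A second bright probe set of Dazl differed by 0.02.

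Rises in the same list were genes of progenitors and of the stem cell pool alike. Sox3, which marks progenitors committed to differentiation, read 297, 312, 267 and 283 against 188, 171, 160 and 172, with no overlap (0.74 ± 0.07, adjusted p 6.22e-05). Zbtb16, a zinc finger repressor needed for stem cell maintenance, read 2104, 2184, 2085 and 1985 against 1700, 1747, 1743 and 1838 (0.25 ± 0.04, adjusted p 0.00257). Neurog3, another progenitor factor, rose by 0.42 ± 0.08 (adjusted p 0.0116) at intensities of 13.1 to 20.9, near the array median. Its mean was 14.5 in control, below the array medians, and 19.7 in knockdown. Kdm1a, a histone demethylase, rose by 0.17 ± 0.03 (adjusted p 0.0040).

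Differentiation genes leaned upward. Of 27 tested, 7 rose and 2 fell (33.3%), with a median of 0.05, and 5 to 8 rose when 1 array was left out. This list shares Sox3 and Neurog3 with the regulators above, so their rises are counted in both lists. Sohlh1, a bHLH factor that drives spermatogonial differentiation, read 843, 725, 767 and 818 against 515, 533, 529 and 481, without overlap and with replicate 3 among the others (0.61 ± 0.06, adjusted p 5.73e-05). Kctd14 read 138, 109, 135 and 150 against 103, 74.2, 67.6 and 77.5 (0.72 ± 0.13, adjusted p 0.00602). Uchl1, a ubiquitin hydrolase of spermatogonia, rose by 0.21 ± 0.04 (adjusted p 0.00867), with replicate 3 the highest at 7319. Dmrt1, a testis regulator, rose by 0.16 ± 0.04 (adjusted p 0.0193) and lost its call without control replicate 2 (adjusted p 0.0588) or 3 (0.0623). Ccnd3 (-0.20) and Ccna2 (-0.17), both cyclins, were the falls, called in 5 and 1 of 8 fits without 1 array. A second probe set of Ccnd3 differed by 0.09. Kit, the receptor that marks differentiating spermatogonia, read 483, 488, 538 and 548 against 462, 444, 425 and 466, above control on all 4 knockdown arrays, but did not pass (0.19 ± 0.06, adjusted p 0.0594). Stra8, induced by retinoic acid, did not pass either (0.17 ± 0.06, adjusted p 0.0978). Kit and Stra8 were chosen after their values were seen.

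Of 36 germ cell identity and piRNA genes tested, 6 rose and 2 fell (22.2%), with a median of 0.08, and 3 to 7 rose with 1 array left out. Pramel13, of the PRAME family, had the largest change, from 227 to 284 in control to 322 to 344 (0.46 ± 0.07, adjusted p 0.00313). Tex19.2 (0.24 ± 0.05, adjusted p 0.0110), which acts in silencing of transposable elements, and Taf7l (0.16 ± 0.03, adjusted p 0.0150), a germ cell subunit of a general transcription factor, were smaller. Tex15, Tex19.1 and Dnd1 rose by 0.16 to 0.18, and each lost its call in at least 1 fit without 1 array. Of 34 meiosis genes, Sycp3, of the synaptonemal complex, rose by 0.18 ± 0.04 (adjusted p 0.0122), and Dazl was the fall.

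**Figure D2:**
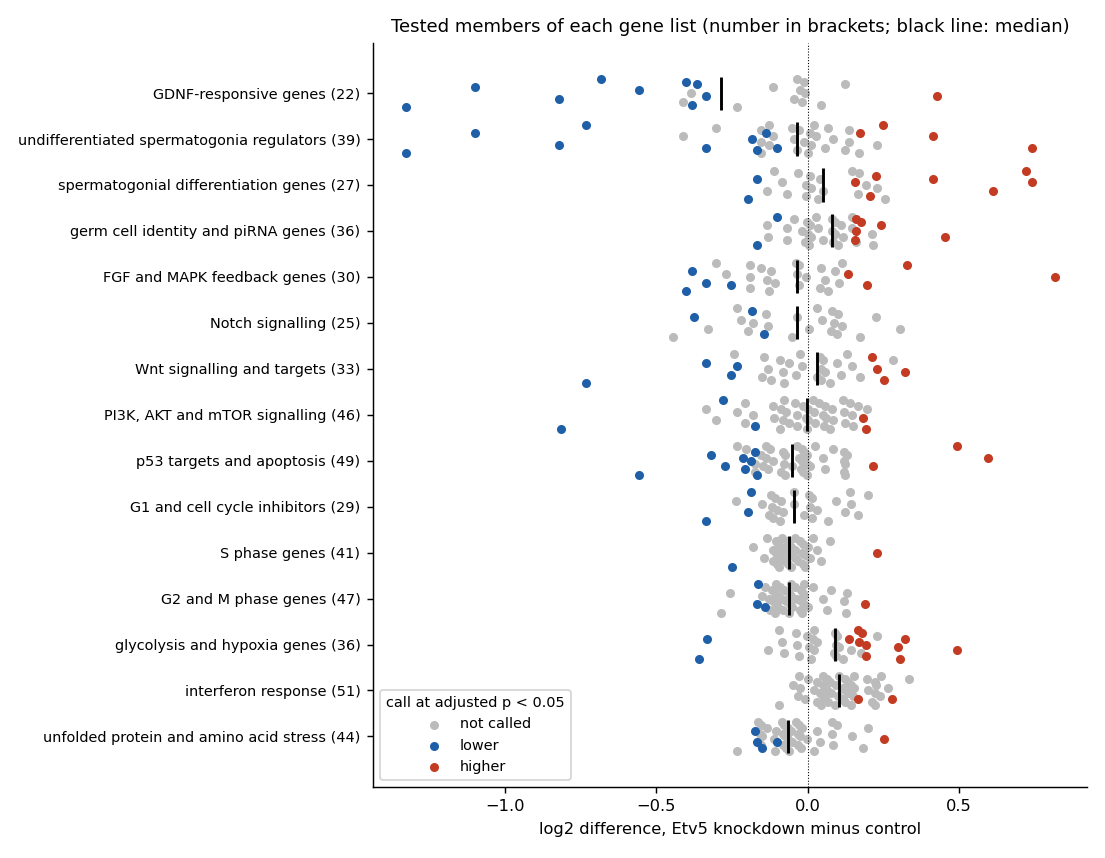
Each point is a tested gene of a list, placed by its log2 difference, Etv5 knockdown minus control, over 4 and 4 arrays; red points rose, blue points fell and grey points did not pass an adjusted p under 0.05, and black lines are medians. The GDNF-responsive list has its median at -0.29, whereas that of glycolysis and hypoxia genes is 0.09 and that of interferon genes 0.10.

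Of 367 transcription factors tested, 23 rose and 23 fell (12.5%), with a median of -0.02, against 8.98% called over all genes. Without replicate 3 these counts were 27 and 32, and over all fits without 1 array they ranged from 14 to 27 and from 10 to 32. Among SOX, FOX and GATA factors, Foxc2, a forkhead factor, read 597, 541, 729 and 529 against 994, 981, 869 and 899 (-0.65 ± 0.09, adjusted p 0.00127). Its groups were apart, with replicate 3 the highest knockdown array. Sox13 read 140, 142, 137 and 127 against 188, 189, 179 and 170 (-0.41 ± 0.06, adjusted p 0.00287), a fall as large in replicate 3 as elsewhere. Foxf2 rose by 0.46 ± 0.12 (adjusted p 0.0375) and was called in 4 of 8 fits that left out 1 array.

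The largest fall of a transcription factor outside the markers was Dmrt2, a DM domain factor, which read 25.6, 25.8, 41.5 and 26.0 against 48.0, 66.9, 47.5 and 76.4 (-0.98 ± 0.18, adjusted p 0.00715). Its groups did not overlap, and replicate 3 was close to the lowest controls. Second probe sets of Sall3, Jdp2, Tgfb1 and Sema7a were below the array medians and showed no fall. Smaller falls included Sall3 (-0.59 ± 0.12, adjusted p 0.0120), a spalt zinc finger factor, and Jdp2 (-0.29 ± 0.05, adjusted p 0.00475), a partner of AP-1 proteins. Tox3 (-0.54), Smad6 (-0.49), an inhibitory SMAD, Hoxb5 (-0.41) and Zic1 (-0.27) also fell, but each was called in only 2 to 4 of the 8 fits without 1 array. A dim second probe set of Zic1 differed by -1.15. Of 46 homeobox, LIM and POU factors 4 fell and 3 rose.

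Tcfl5, a bHLH factor of male germ cells, had the largest rise of a transcription factor. It read 2912, 3216, 3115 and 2779 against 1653, 1578, 1603 and 1624 (0.89 ± 0.05, adjusted p 1.41e-06). The bHLH list had 6 rises and 1 fall among 45 tested (15.6%); it also held Ahr, the ligand-activated aryl hydrocarbon receptor (0.49 ± 0.09, adjusted p 0.00633), and Hif1a, the oxygen-regulated factor (0.23 ± 0.04, adjusted p 0.00387). Other bright probe sets of Hif1a differed by 0.61 and 0.63. Ahr read 759, 947, 737 and 700 against 538, 523, 543 and 624, without overlap. Ppargc1a, a coactivator of mitochondrial genes, rose from 346 to 400 in control to 561 to 682 (0.72 ± 0.07, adjusted p 6.71e-05). Its 2 dimmest probe sets differed by 0.25 and 0.43 and did not pass.

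Klf4, a zinc finger factor of the pluripotency network, read 1841, 1638, 1570 and 1693 against 1408, 1414, 1198 and 1380 (0.32 ± 0.06, adjusted p 0.00866). Among 15 tested ETS factors Erg was the one call, at 300, 291, 255 and 345 against 243, 196, 214 and 231, without overlap (0.43 ± 0.09, adjusted p 0.0175). The call for Erg was lost without control replicate 2 (adjusted p 0.0521) or 3 (0.0576). The other members of the list, which leaves out Etv5, did not pass the test.

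Of 220 receptor and adhesion genes tested, 15 rose and 16 fell (14.1%), with a median of -0.02. With 1 array left out 9 to 19 rose and 7 to 16 fell. Notch1 read 599, 548, 621 and 561 against 812, 730, 725 and 754 (-0.38 ± 0.05, adjusted p 0.00185), with replicate 3 the nearest to control but apart from it. Of 25 genes of Notch signalling, Notch1, Numb and Adam17 fell and none rose (12%). Without replicate 3 there were 6 falls. The calls for Numb (-0.18), which restrains Notch, and Adam17 (-0.14), a protease that cleaves Notch, held in 7 and 4 of 8 fits that left out 1 array. The 2 dimmer probe sets of Adam17 differed by -0.01 and -0.13 and did not pass. Ramp2, which makes a calcitonin-like receptor respond to adrenomedullin, read 17.5 to 27.4 on the knockdown arrays and 46.8 to 50.6 in control (-1.09 ± 0.13, adjusted p 4.91e-04). Mrc1, the mannose receptor that macrophages carry, read 27.9, 22.6, 45.3 and 40.1 against 88.4, 84.9, 80.1 and 77.4 (-1.31 ± 0.18, adjusted p 0.00101). Both groups were apart in these dim genes. Mcam, an adhesion molecule of the immunoglobulin family, was brighter and fell from 2314 to 2619 in control to 1670 to 1987 (-0.49 ± 0.06, adjusted p 3.22e-04).

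Among rises, Alcam, an adhesion molecule that binds CD6, read 342, 388, 337 and 307 against 194, 170, 177 and 218 (0.85 ± 0.09, adjusted p 1.51e-04). Itgb8, an integrin subunit that activates latent TGF-beta, read 327, 385, 260 and 294 against 194, 189, 200 and 215 (0.65 ± 0.10, adjusted p 0.00287), with replicate 3 lowest but above control. Of 27 receptor tyrosine kinases and GDNF co-receptors tested, Mertk, a receptor for clearing dead cells (0.42 ± 0.09, adjusted p 0.0117), Ror1, a WNT5A receptor (0.32 ± 0.07, adjusted p 0.0168), and Pdgfrb (0.24 ± 0.06, adjusted p 0.0377) rose and none fell. The call for Ror1 was lost without control replicate 3 (adjusted p 0.0570), and that for Pdgfrb held in 3 of 8 fits without 1 array.

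Il6st, the shared receptor of the interleukin 6 family, read 3175, 3208, 3241 and 3455 against 2714, 2829, 2793 and 2732, without overlap (0.24 ± 0.03, adjusted p 0.0015). Tgfbr1, the type I receptor for TGF-beta, rose by 0.33 ± 0.06 (adjusted p 0.00481), and the neuropeptide Y receptor gene Npy1r by 0.38 ± 0.06 (adjusted p 0.00436). Plxna2, a semaphorin co-receptor, rose by 0.42 ± 0.08 (adjusted p 0.00725), and its relative Plxna1 fell (-0.20 ± 0.04, adjusted p 0.0115), with -0.02 on a dimmer probe set. In the TNF receptor superfamily 3 of 13 fell, led by the death receptor gene Tnfrsf25 (-1.15 ± 0.21, adjusted p 0.00737), and Fas rose by 0.22, a call that held in 5 of 8 fits without 1 array.

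Secreted factors had the highest share of calls of these classes, with 28 rises and 14 falls among 238 tested (17.6%) and a median of 0.03. With 1 array left out 17 to 25 rose and 7 to 15 fell. Ligands for receptors on spermatogonia and their neighbours were among the falls. Tgfb1 read 410, 420, 551 and 452 against 671, 635, 617 and 586 (-0.46 ± 0.09, adjusted p 0.00716), with replicate 3 just under the lowest control. Ereg, an EGF receptor ligand, read 1157, 1069, 1043 and 1178 against 1286, 1366, 1287 and 1372 (-0.26 ± 0.05, adjusted p 0.00727), and here replicate 3 was the lowest array. Csf1, a colony-stimulating factor that acts on macrophages, fell (-0.17 ± 0.03, adjusted p 0.00799) and the WNT antagonist gene Frzb fell from 421 to 453 in control to 302 to 369 (-0.40 ± 0.07, adjusted p 0.00454). Bmp7 (-0.41 ± 0.10, adjusted p 0.0247), Fgf9 (-0.42 ± 0.12, adjusted p 0.0453) and Hbegf (-0.28 ± 0.08, adjusted p 0.0481) also passed, but were called in 4, 1 and 1 of 8 fits that left out 1 array. Fgf9 and Hbegf were chosen after their values were seen.

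Of 34 cytokines and chemokines tested, 5 rose and none fell (14.7%), 29 did not pass, and the median was 0.07. Cxcl1, a chemokine for neutrophils, read 3542, 3588, 3699 and 3575 against 2755, 3007, 2958 and 2944 (0.30 ± 0.03, adjusted p 2.36e-04). Cxcl5, of the same family, read 1714, 1678, 1698 and 1821 against 1227, 1365, 1252 and 1356 (0.41 ± 0.05, adjusted p 2.23e-04). Ccl9 rose by 0.40 ± 0.05 (adjusted p 4.97e-04), and Tnfsf9, a T cell costimulatory ligand, by 0.34 ± 0.05 (adjusted p 0.00201). In all 4 the knockdown arrays lay above the control arrays and replicate 3 was within or above the other knockdown arrays. The fifth, Il33, an alarmin, changed by 0.15 and was called in 1 of 8 fits that left out 1 array.

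Matrix genes added the most rises of any list, with 13 rises and 3 falls among 94 tested (17.0%) and a median of 0.02. With 1 array left out 8 to 13 rose and 1 to 5 fell. Tnc, the matrix glycoprotein tenascin C, read 3150, 2884, 2907 and 2937 against 1639, 1725, 1814 and 1899 (0.75 ± 0.05, adjusted p 6.42e-06), and by 0.31 on a dim second probe set that did not pass. Mmp13, a collagenase, read 92.7, 74.5, 71.6 and 65.3 against 40.3, 48.2, 50.4 and 51.0 (0.66 ± 0.11, adjusted p 0.00416). Col8a1 rose by 0.45 ± 0.06 (adjusted p 0.00101) and Postn, periostin, by 0.19 ± 0.03 (adjusted p 0.00112), whereas the basement membrane collagen gene Col4a1 fell (-0.20 ± 0.04, adjusted p 0.0108). Among other secreted products, the IGF-binding protein genes Igfbp5 (0.26 ± 0.04, adjusted p 0.00338) and Igfbp6 (0.23 ± 0.03, adjusted p 0.00206) and the guidance cue gene Sema3a (0.43 ± 0.09, adjusted p 0.0123) rose. Dkk3, of the Dickkopf family, rose by 0.49 ± 0.09 (adjusted p 0.00662), and Stc1, a stanniocalcin, read 211, 207, 169 and 227 against 120, 122, 119 and 158 (0.65 ± 0.11, adjusted p 0.00403).

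Markers of fibroblasts and feeder cells were compared beside these matrix genes. Of 26 tested 5 rose (Vim, Ccn2, Pdgfrb, Postn and Col6a2) and none fell, the median was 0.02, and the summed intensity of all 26 was 271302 to 284530 with the Etv5 siRNA and 264190 to 266200 in control. Without Vim, at 39494 to 42423 against 32406 to 33816, the sums overlapped, at 229627 to 242107 against 231208 to 233794. The part of these cells in the result was not tested. A second bright probe set of Col6a2 differed by -0.06. The sum of endothelial markers went the other way, at 3981 to 4211 against 4250 to 4447 summed over 25 markers, of which 15, among them Cdh5, Pecam1 and Tek, were below the median of every array. There, Plvap (-1.30 ± 0.20, adjusted p 0.00225), Ramp2 and Cd34 fell, Erg rose, and the other 6 of 10 tested did not pass. Cd34 was the brightest of them, at 1637 to 1842 against 1908 to 2061, and no sum was taken without it. In fits without 1 array the calls held in 2 of 8 for Cd34 and Ccn2 and in 3 of 8 for Pdgfrb. The sums for germ cell, Sertoli, Leydig and macrophage markers overlapped between groups. Lyz2, the lysozyme of macrophages, had the largest called fall, from 79.8, 46.9, 69.6 and 116 in control to 27.3, 51.7, 9.74 and 24.6 (-1.57 ± 0.39, adjusted p 0.0304). Its groups overlapped, replicate 3 was its lowest array, and the call held in 3 of 8 fits without 1 array. Lyz2 was the only call among 11 macrophage and leukocyte markers tested, and their median was 0.08.

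**Figure D3:**
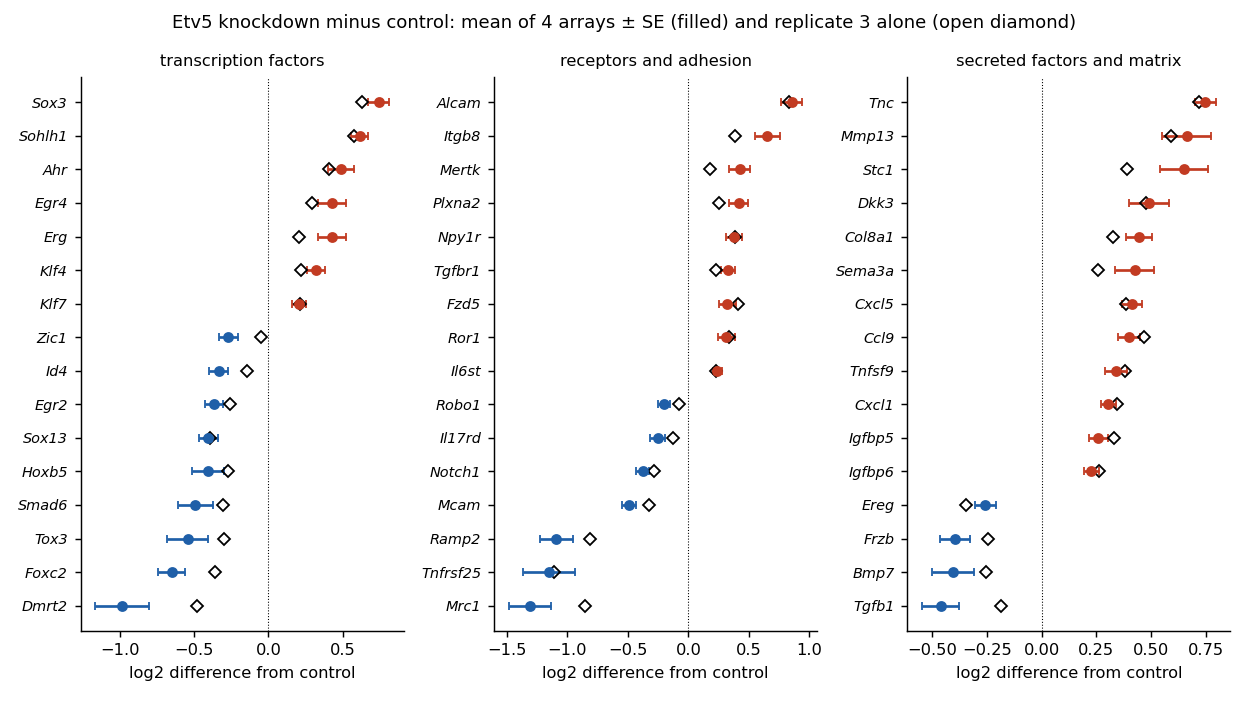
Filled points give the log2 difference, Etv5 knockdown minus control, with its SE over 4 and 4 arrays for 16 named transcription factors, 16 receptor and adhesion genes and 16 secreted factors; open diamonds give replicate 3 minus the control mean. For Dmrt2, Foxc2, Id4, Mcam, Mrc1 and Tgfb1 the diamond lies nearer to 0 than the mean does, and for Tnc, Cxcl1, Sohlh1, Alcam and Sox13 it lies on or close to it.

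Genes of glycolysis and the response to hypoxia leaned upward: 10 of 36 rose and 2 fell (33.3%), with a median of 0.09, and 6 to 10 rose with 1 array left out. Bnip3, a mitochondrial protein of mitophagy, read 3270, 3096, 3030 and 3280 against 2204, 2256, 2182 and 2357 (0.49 ± 0.04, adjusted p 2.08e-05). Eno2, an enolase, rose from 555 to 620 in control to 659 to 788 (0.30 ± 0.06, adjusted p 0.0103), and Ndrg1 by 0.30 ± 0.05 (adjusted p 0.0030). The glycolytic enzyme genes Pgk1 (0.14 ± 0.03, adjusted p 0.0110) and Tpi1 (0.17 ± 0.03, adjusted p 0.00207) rose by less. The falls were Slc2a3, a glucose transporter (-0.36), and Pfkfb4 (-0.33), a regulator of glycolytic flux, both chosen after their values were seen, and called in 4 and 2 of 8 fits without 1 array.

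Of 59 RNA-binding genes and translation regulators, 6 rose and 4 fell (16.9%). Tnrc6a, the scaffold that Argonaute recruits, read 8409, 8657, 7455 and 7833 against 5572, 5387, 5535 and 5237 (0.57 ± 0.04, adjusted p 2.13e-05), while 2 of its dimmer probe sets differed by 0.24 and 0.35 and did not pass. Cnot7, a deadenylase, rose by 0.34 ± 0.04 (adjusted p 2.72e-04), and Dcp1a, of the decapping complex, by 0.29 ± 0.04 (adjusted p 0.00233). Esrp1, a splicing regulator of epithelial cells, read 2621, 2662, 2931 and 2428 against 3204, 3288, 3272 and 3283, without overlap (-0.30 ± 0.05, adjusted p 0.00322).

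Of 49 p53 target and apoptosis genes 3 rose and 8 fell (22.4%); Bcl2, which blocks apoptosis, read 429, 463, 462 and 428 against 278, 305, 295 and 298 (0.60 ± 0.05, adjusted p 5.28e-05), and the p53 targets Zmat3 (-0.32 ± 0.04, adjusted p 0.00109) and Ccng1 (-0.17 ± 0.04, adjusted p 0.0115) fell. Of 46 genes of PI3K, AKT and mTOR signalling 2 rose and 3 fell. The largest was Pik3cd, a catalytic PI3K subunit, at 172, 144, 240 and 192 against 304, 344, 350 and 300 (-0.82 ± 0.13, adjusted p 0.00262); of its other bright probe sets 1 differed by -1.04 and 1 by 0.02. Of 33 Wnt genes (24.2% called) 4 rose, with Wls, which carries WNT proteins to the surface, at 0.25 ± 0.03 (adjusted p 1.48e-04), and 4 fell. Other bright probe sets of Wls differed by 0.12 and 0.08 and did not pass.

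Cell cycle lists changed little in the fit of all 8 arrays: 1 rise and 1 fall among 41 S phase genes, and 1 rise and 3 falls among 47 G2 and M phase genes. The shares of 4.88% and 8.51% were at or below that of all genes. Interferon response genes, a common reaction to double-stranded RNA, had 2 rises among 51, Ifit2 (0.28 ± 0.06, adjusted p 0.0218) and H2-D1 (0.17 ± 0.04, adjusted p 0.0313), with a median of 0.10. Ifit2 read 2021, 2240, 2175 and 2257 against 1642, 2015, 1876 and 1648. Both calls were lost in some fits without 1 array, 3 of 8 for Ifit2 and 5 of 8 for H2-D1. Of 122 chromatin regulators 10 rose and 7 fell, among them the histone demethylase gene Kdm6b (0.18 ± 0.03, adjusted p 0.00602) and the histone gene H2ax (-0.23 ± 0.03, adjusted p 0.00213).

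To see which changes were also present with other targeting siRNAs, Etv5 knockdown was set against the mean of the Bcl6b and Pou3f1 knockdowns, a comparison that uses the same 4 Etv5 arrays but no control array. In it 14 genes were higher (0.126%) and 27 lower (0.244%), 0.37% of those tested. Bcl6b knockdown array 1 stands apart from all others (mean correlation 0.975, against 0.996 to 0.997 for the other 15). Its log2 difference between 3' and 5' control probe sets, a sign of RNA quality, was 1.03 for Gapdh and 3.08 for Actb, against -0.53 to -0.45 and 0.62 to 0.76 on those 15. Without it 204 genes were higher (1.84%) and 153 lower (1.38%), 3.23% of those tested. Values below are with that array, and where a second follows, it is without it. For genes with a single value, the fit without it is not given here.

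Of the markers, 3 passed in this comparison and Cxcr4 did so without Bcl6b knockdown array 1. Lhx1 was lower (-1.57 ± 0.20, adjusted p 0.00603; -1.45 without that array), and Etv5 likewise (-1.46 ± 0.21, adjusted p 0.0114; -1.59). Bcl6b was lower (-0.66 ± 0.11, adjusted p 0.0296; -0.64) than the mean, which includes Bcl6b knockdown itself. Its 608 to 899 with the Etv5 siRNA overlapped 611 to 791 with the Bcl6b siRNA. With the Pou3f1 siRNA it read 1421 to 1714. Cxcr4 differed by -0.91 ± 0.19 (adjusted p 0.0770) and passed without that array (-0.84 ± 0.16, adjusted p 0.0102). Foxc2 (-0.63 ± 0.10, adjusted p 0.0210), Egr2 (-0.54 ± 0.08, adjusted p 0.0119), Esrp1 (-0.39 ± 0.05, adjusted p 0.00966), Ramp2 (-1.31 ± 0.14, adjusted p 0.00232) and Marveld2, a tight junction gene chosen after its values were seen (-0.70 ± 0.07, adjusted p 0.00232), were lower as well. Krt18, a keratin of simple epithelia, was higher by 1.12 ± 0.21 (adjusted p 0.0469; 1.26 without that array) and Sohlh1 by 0.52 ± 0.08 (adjusted p 0.0249; 0.57). Sox3 differed by 0.68 ± 0.15 (adjusted p 0.103) and passed without that array (0.57 ± 0.06, adjusted p 1.16e-04).

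Krt18 itself read 68.2, 60.5, 61.8 and 59.5 in Etv5 knockdown and 28.9, 29.0, 26.2 and 25.3 in control (1.16 ± 0.08, adjusted p 1.03e-05). Its mean was 31.3 in Bcl6b knockdown and 27.6 in Pou3f1 knockdown. For several rises against control, the other knockdowns also averaged above control. Tcfl5 averaged 3005 in Etv5, 2875 in Bcl6b and 3022 in Pou3f1 knockdown against 1615 in control, and differed from the other knockdowns by 0.03 ± 0.04 (adjusted p 0.939). Cxcl1 (0.03 ± 0.05, adjusted p 0.933), Ccl9 (-0.05 ± 0.05, adjusted p 0.931) and Rdx, an ezrin-family linker of actin to the membrane (-0.11 ± 0.10, adjusted p 0.925), did not pass either. Tnc differed by 0.22 ± 0.06 (adjusted p 0.172; 0.20 ± 0.05, adjusted p 0.0315 without that array). Ccnd1, which fell against control, averaged 4504 in Etv5, 3781 in Bcl6b and 4471 in Pou3f1 knockdown against 5687 in control, and did not pass (0.13 ± 0.05, adjusted p 0.450).

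By list, the GDNF-responsive genes had 5 of 22 lower and none higher against the other knockdowns, and 11 lower and 1 higher without Bcl6b knockdown array 1. These counts include the markers Bcl6b, Lhx1 and Cxcr4. Differentiation genes had 1 of 27 higher, and 6 without that array. Glycolysis and hypoxia genes had none of 36 called, and 2 higher and 1 lower without it. Matrix genes had none of 94 called, and 8 higher and 2 lower without it, and cytokines and chemokines had none, and 2 higher and 1 lower without it. Interferon genes had none called, but 20 of 51 higher without that array. For Ifit2 the means were 2173 in Etv5, 2571 in Bcl6b and 1354 in Pou3f1 knockdown and 1795 in control.

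**Figure D4:**
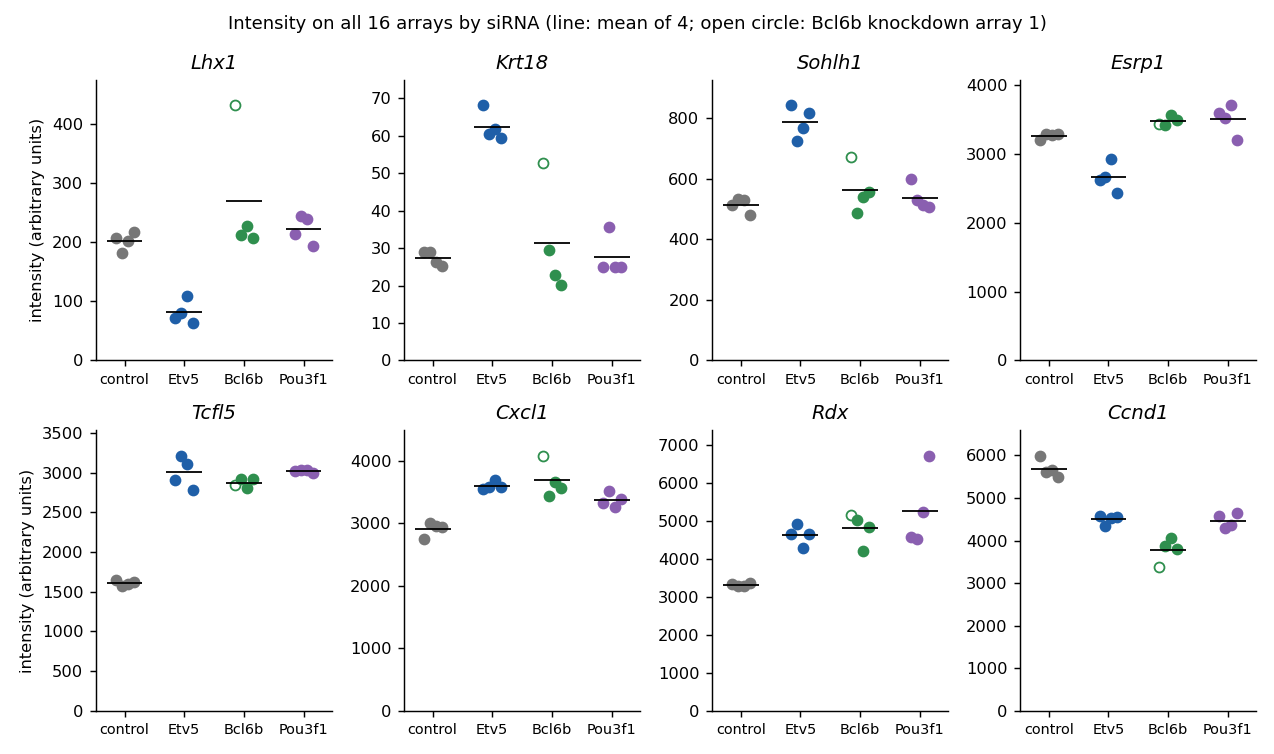
Intensity (arbitrary units, linear axis from 0) on all 16 arrays by siRNA, with lines at the means of 4 arrays and an open circle for Bcl6b knockdown array 1. In the upper row no array of another siRNA reaches the Etv5 knockdown arrays, Bcl6b knockdown array 1 being the nearest in Krt18 and Sohlh1; in the lower row every knockdown array lies on the same side of control, at 1615 for Tcfl5 and 5687 for Ccnd1, with Bcl6b knockdown below Etv5 knockdown for Ccnd1.

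Replicate 3 had the weakest knockdown: Etv5 was lower than the control mean with a log2 difference of -0.82 there and of -1.71 for replicates 1, 2 and 4. To describe the array without using it to choose genes, genes were called in a fit without it. Of the 1134 genes so called (10.2% of those tested), 496 higher (4.48%) and 638 lower (5.76%), replicate 3 kept a median of 65.5% of the mean difference of the other 3 arrays, with quartiles of 34.6% and 95.5%. The same step gave 95.7% for replicate 1, 96.6% for replicate 2 and 88.5% for replicate 4, over 614 (5.55%), 824 (7.44%) and 778 (7.03%) genes. For replicates 1, 2 and 4 the mean of the other 3 arrays includes replicate 3, and their genes were called with it in the fit. Their shares are therefore not like for like with that of replicate 3. All of these shares are descriptions over genes measured on the same arrays, with no test.

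The shortfall was larger among falls than among rises. Replicate 3 kept a median of 54.4% of falls and 78.7% of rises, and for the other replicates the medians lay between 80.3% and 100.9% for falls and between 88.8% and 105% for rises. For rises this order depended on scaling. With median centring, replicate 3 kept 43.8% of falls and 85.7% of rises, and replicate 2 kept 68.8% of rises, the lowest share. Without that centring, replicate 3 kept less than 25% of the difference in 144 of 638 falls and in 61 of 496 rises. It kept 100% or more in 98 falls and 142 rises. In all, 923 of the 1134 genes (81.4%) still lay beyond the control range on the same side in replicate 3, 190 lay inside the control range and 21 beyond it on the opposite side. Of the 512 falls called with all 8 arrays, replicate 3 was the knockdown array nearest to control in 222 (43.4%), against 59 to 130 for each of the others. Of the 482 rises it was nearest in 161 (33.4%), against 55 to 147 for each of the others.

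The shares kept by gene list are described with no test, beside 54.4% over all falls and 78.7% over all rises. Of 12 GDNF-responsive genes called without it, the median share kept was 53.3%, and for 14 regulators of undifferentiated spermatogonia it was 50.5%. For 13 FGF and MAPK feedback genes it was 43.4%. Most of these genes were falls. Etv5 itself kept 48.2%. The markers Bcl6b, Lhx1 and Cxcr4, members of the GDNF-responsive list and of the undifferentiated list, kept 55.9%, 59.3% and 50.7%. The GDNF-responsive median lay between Cxcr4 and Bcl6b, and neither median was taken without the markers. Plvap, a protein of endothelial fenestrae, kept 32.8%, with 174 on replicate 3, 80.8 to 87.2 on the other knockdown arrays and 238 to 265 in control. Among lists with more rises than falls, 18 matrix genes kept a median of 88.0%, 11 glycolysis and hypoxia genes 77.0% and 8 differentiation genes 79.6%. The 12 p53 and apoptosis genes, mostly falls, kept 88.9%. Tcfl5, Krt18 and Sohlh1 kept 108%, 98.5% and 92.1%. Among falls, Sema7a, a membrane-anchored semaphorin, kept 95.9%, with 69.4 on replicate 3, 60.4 to 73.0 on the others and 129 to 157 in control, and Ccnd1 kept 96.0%.

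Counts of cell cycle genes changed with this array. Without it 11 of 47 G2 and M phase genes and 7 of 41 S phase genes fell, against 3 and 1 with it, and replicate 3 kept a median of 14.5% in the 11 genes of the first list that passed and -0.81% in the 8 of the second. Cdk1, the mitotic kinase, read 2272, 2303, 2564 and 2335 against 2581, 2634, 2643 and 2587, and Ccna2 read 2251, 2090, 2411 and 2090 against 2466, 2496, 2473 and 2489. In both, replicate 3 lay between the other knockdown arrays and the controls, and the calls held with replicate 3 left out and in no other fit without 1 array.

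Genes called without replicate 3 for which it lay inside the control range included Dusp6 and Eomes, a T-box factor of a spermatogonial stem cell subset. Eomes read 76.7, 87.5, 110 and 97.5 against 131, 144, 102 and 118, and its adjusted p was 0.0287 without replicate 3 and 0.0602 with it. Its other probe set, equally bright at 125 in control and 72.2 in knockdown, differed by -0.79 and passed with all 8 arrays (adjusted p 0.00565 over all probe sets). Haus5, of the augmin complex, read 74.8, 62.7, 109 and 75.7 against 90.6, 94.2, 127 and 122 (adjusted p 0.0188 without replicate 3 and 0.107 with it). Il1r2, a decoy receptor for interleukin 1, Penk, an opioid precursor, and Pkia, an inhibitor of protein kinase A, were called with and without it, at -0.71, -0.53 and 0.56 with it and -0.83, -0.67 and 0.69 without it. With 1 array left out their calls held in 3, 1 and 2 of 8 fits. It correlated with the remaining arrays at a mean of 0.997, as did each of the 8 arrays, and its log2 difference between 3' and 5' Gapdh control probe sets was -0.49, within the -0.51 to -0.45 of the 8 arrays.

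**Figure D5:**
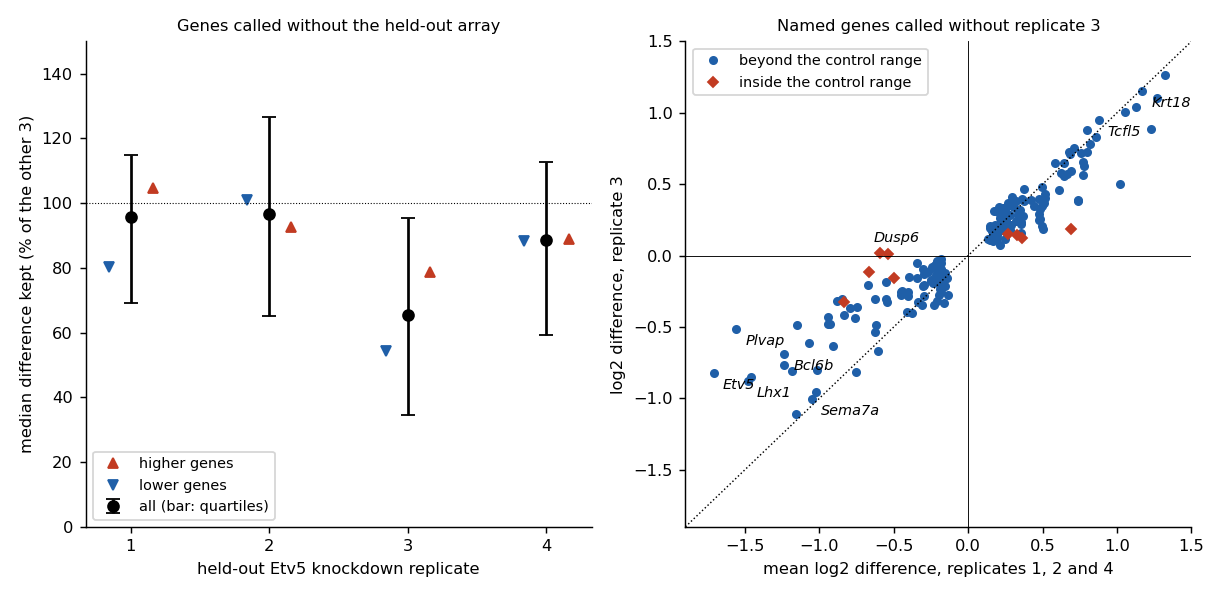
Left, for each Etv5 knockdown replicate held out, the median share (%) of the mean log2 difference of the other 3 that it kept, over genes called without it (black, bars from lower to upper quartile; red triangles rises, blue triangles falls); right, the log2 difference from control in replicate 3 against the mean of replicates 1, 2 and 4 for the named genes called without it, with the dotted line at equality. Replicate 3 is lowest at left (65.5% in all, 54.4% for falls), and at right most falls lie above the line, while Sema7a, Krt18 and Tcfl5 lie near it and Cacna1h, a rise of 1.02 in the other arrays, reads 0.50.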

How the data were processed

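The values are from Affymetrix Mouse Genome 430 2.0 arrays, 1 sample each. The deposited table holds 1 linear intensity per probe set and array, already summarised and normalized by the authors. Expression Console 1.1 (Affymetrix), MAS5, GCRMA and Partek 6.4 appear in the submitters' processing notes, with no word on which of them made this table. Probe sets were named through the platform annotation: 34945 had 1 gene symbol, 932 several and 9160 none, and 1 probe set per gene, the one with the highest mean, stood for each of 18193 genes.

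Intensities were taken as log2(value + 1), a scale on which dim genes appear to change less than they did. The 11068 genes above the median of their array on at least 4 of the 8 arrays were fitted with limma 3.58.1 (lmFit and eBayes with an intensity trend; R 4.3.3), which was tested on simulated data. A gene was called at a Benjamini-Hochberg adjusted p under 0.05 over all tested genes; every adjusted p here is limma's. The second comparison fitted the 12 knockdown arrays. Groups came from the sample titles. The numbers 1 to 4 are not stated to pair the samples, and no pairing was used in these fits. Deviations of same-numbered arrays correlated from -0.27 to 0.09, and those of differently numbered arrays from -0.09 to 0.22. So few correlations do not settle whether samples were paired. The alternatives covered scaling, pseudocount, filter, probe set choice, array weights, variance trend, arrays in the fit, a replicate block and leaving out each array. Figures were drawn with matplotlib 3.10.9.

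The genes and lists were chosen with earlier results of these data known. The rule named the 4 markers, the 25 largest called rises and falls without overlap, up to 6 called genes of each list by p, and up to 6 genes called without replicate 3 that lay inside the control range in it. Genes outside it are said to be chosen after their values were seen, as Dusp14 and Socs3 also were. siRNA sequences were not used here.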

Additional observations from a re-analysis of the deposited data

Results flagged for a closer look

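In a group of 4 arrays, a value was singled out where its gap to the nearest other array exceeded Dixon's 95% critical share of the range of the group. Chance gives about 1 such value in 20 groups, and 20 were found in 270 groups. Etv5 knockdown replicate 3 gave 6 of them, each above the other knockdown arrays and towards control: Etv5 at 1676, Bcl6b at 899, Nefm at 4102, Dmrt2 at 41.5, Marveld2 at 473 and Plvap at 174. Etv5 knockdown replicate 1 stood apart with Dmrt1 at 8270, Hoxb5 at 36.2, Foxf2 at 62.9 and Adam17 at 1763. Etv5 knockdown replicate 2 did so with Igfbp6 at 3464 and Ndrg1 at 1212.

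Among control arrays, replicate 1 stood apart with Il33 at 875. Replicate 2 did so with Nefm at 4991 and Csf1 at 3431, and replicate 3 with Klf4 at 1198. Replicate 4 did so with Uchl1 at 5587, Mertk at 154, Stc1 at 158 and Plxna1 at 1312.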

How the results depend on the processing

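Against control, 482 genes rose and 512 fell. With all 16 arrays in the fit the counts were 143 and 85, and without Bcl6b knockdown array 1 in that fit 509 and 551. The replicate block gave 293 and 222. Falls numbered 272 with no filter and 791 with array weights. Leaving out 1 array gave 292 to 496 rises and 221 to 638 falls. Against the other knockdowns, 14 genes were higher and 27 lower. Without Bcl6b knockdown array 1 these were 204 and 153, with median centring 9 and 13, and with the replicate block 7 were higher. Leaving out 1 Etv5 array gave 2 to 8 higher and 3 to 31 lower. The median share kept by replicate 3 was 60.2% to 66.7% under 4 alternatives. Differences near 0 changed sign: Tcfl5 against the other knockdowns ranged from -0.0076 to 0.063 without 1 Etv5 array, and Ret against control was 0.0040 with quantile normalization and ranged from -0.042 to 0.030 without 1 array. The cause was not tested. Of 129 named genes called against control, 86 kept direction and call without each array in turn, and 46 did so in every alternative. The replicate block cost 31 their call. With all 16 arrays in the fit 75 lost it, and without Bcl6b knockdown array 1 in that fit 120 kept it. Dim genes, near the array medians of 15.8 to 16.7, have the least certain sizes.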
